A study of Mus musculus with 4 samples.

Results

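The genes described here are 37 genes of amino acid supply and tRNA charging linked to the transcription factor ATF4, with Atf4 itself. They were chosen by symbol, with earlier results of these data known, and all 37 were found among the 55536 rows of the deposited table. They comprise 5 regulators (Atf4, Atf5, Trib3, Chac1, Sesn2), 7 genes of serine and one-carbon metabolism (Phgdh, Psat1, Psph, Shmt1, Shmt2, Mthfd1l, Mthfd2), 5 genes of asparagine, proline and cysteine synthesis (Asns, Aldh18a1, Pycr1, Cth, Cbs), 8 amino acid transporter genes (Slc7a1, Slc7a3, Slc7a5, Slc3a2, Slc1a4, Slc1a5, Slc38a1, Slc38a2) and 12 cytosolic aminoacyl-tRNA synthetase genes (Aars, Cars, Eprs, Gars, Iars, Lars, Mars, Nars, Sars, Tars, Wars, Yars). RNA had been sequenced from the stromal vascular fraction, the cells of fat tissue other than mature adipocytes, of inguinal white adipose tissue of wild-type male mice at postnatal day 21. The 4 groups were ObF1 with 1,3BD, ObF1 with water, LnF1 with 1,3BD and LnF1 with water. ObF1 and LnF1 are the labels' names for offspring in a series about obesity of the parents, and 1,3BD is the labels' name of the treatment set against water. Whether the cells were cultured before RNA extraction is not stated in the labels. Each group was 1 library pooled from 3 mice, so no group had a replicate, and the libraries held between 24586827 and 26000090 reads.

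When an amino acid runs short or the endoplasmic reticulum is stressed, kinases phosphorylate the translation factor eIF2, general protein synthesis slows, and the Atf4 mRNA is translated more. ATF4 protein then raises transcription of genes that make amino acids, import them and load them onto tRNAs, together with feedback genes such as Trib3 and Chac1. ATF4 is therefore controlled largely at translation, which mRNA levels do not measure. Serine made by this route feeds the folate cycle, and proline and glycine are the main residues of the collagens that fibroblasts of fat tissue secrete.

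ATF4 and its C/EBP partners are known to bind a composite element, here searched on both strands as TGATGNAA, of which TGATGCAA is 1 form. RefSeq promoters (GRCm38.p6, 250 bases before to 50 bases after the start) were matched for 28 of the 37 members. The letters TGATGNAA were present in the promoters of 10 of these 28 members (35.7%) and of 4.51% of all 27025 genes in the promoter table. The form TGATGCAA was present in 7 of the 28 (25%) and in 1.03% of all genes. The shorter TGATG, which every match of the other 2 also holds, was present in 16 of the 28 (57.1%) and in 42.9% of all genes. For each of the 10 genes, the match nearest the start is printed as the 30 bases around it, 5′ to 3′ on the strand where the element reads TGATGNAA, with the element in capitals, because these letters are what the 10 genes have in common. The line for each gene gives the genome position and strand of the window.
Trib3, chr2:152344028-152344057, plus strand: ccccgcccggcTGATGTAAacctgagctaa
Chac1, chr2:119351038-119351067, minus strand: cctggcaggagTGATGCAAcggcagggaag
Asns, chr6:7693214-7693243, minus strand: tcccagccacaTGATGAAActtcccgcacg
Pycr1, chr11:120643833-120643862, minus strand: tgccctgtgtaTGATGCAAtgcacaaggct
Slc1a4, chr11:20332699-20332728, plus strand: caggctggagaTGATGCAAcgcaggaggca
Aars, chr8:111033840-111033869, minus strand: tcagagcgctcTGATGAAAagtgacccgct
Gars, chr6:55037960-55037989, minus strand: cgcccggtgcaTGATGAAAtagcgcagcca
Iars, chr13:49682126-49682155, minus strand: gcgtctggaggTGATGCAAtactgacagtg
Tars, chr15:11399655-11399684, plus strand: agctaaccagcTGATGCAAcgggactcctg
Yars, chr4:129189895-129189924, plus strand: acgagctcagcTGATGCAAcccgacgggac
The printed element lay close to the start in several of them. Counted from the start along the gene to the first base of the element met, it was at -23 in Asns, -30 in Gars, -15 in Tars, -4 in Slc1a4, 4 in Yars and 8 in Iars, and it was farther away at -103 in Pycr1 and -193 in Chac1. A match of letters is a description of the sequence and not a binding site. Of the 16 matched members that were lower with 1,3BD, 7 held TGATGNAA, and of the 12 other matched members 3 did (Slc1a4, Iars and Tars).

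With 1,3BD, 19 of the 37 members were lower than with water, 2 were higher and 16 did not pass the test. The genes that fell were led by Phgdh, the first enzyme of serine synthesis, Atf5, a transcription factor related to ATF4, Pycr1, the last enzyme of proline synthesis, and Slc7a5, a transporter of large neutral amino acids. Atf4 mRNA did not pass (log2 difference 0.08, SE 0.21), and the 2 genes that rose were the transporter genes Slc3a2 and Slc1a5. Summed over the 37 members, the level was 5331 CPM with 1,3BD and 7905 CPM with water in ObF1, and 5662 CPM with 1,3BD and 7741 CPM with water in LnF1. CPM are reads relative to the library total times a scaling factor of each library, and all 37 members reached the minimum of 1 CPM in 2 libraries that a gene needed to be tested.

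A gene passed where its limma adjusted p, over 12838 genes, was below 0.05. Of the members, 51.4% were called lower and 5.41% higher, against 24.8% lower and 19.2% higher of all these genes (3189 and 2466 genes). The members were chosen with earlier results of these data known, so this contrast is a description and not a test. The median log2 difference was -0.64 over the members and -0.06 over all genes tested. The medians of the single-library differences were -0.67 in ObF1 and -0.47 in LnF1. In 25 members both differences were negative, as in 43.5% of all genes, and in 4 both were positive, as in 38.5% of all genes. Both 1,3BD libraries lay below both water libraries in 22 members (59.5%, against 38.2% of all genes) and above them in 4 (10.8%, against 33.8%), which were Slc3a2, Slc1a5, Slc1a4 and Eprs. At least 2-fold lower levels were found in 13 members in ObF1 and 9 in LnF1, where all genes gave 19.7% and 16.4%, and no member was 2-fold higher in either, against 13.1% of all genes in ObF1 and 10.7% in LnF1.

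**Figure D1:**
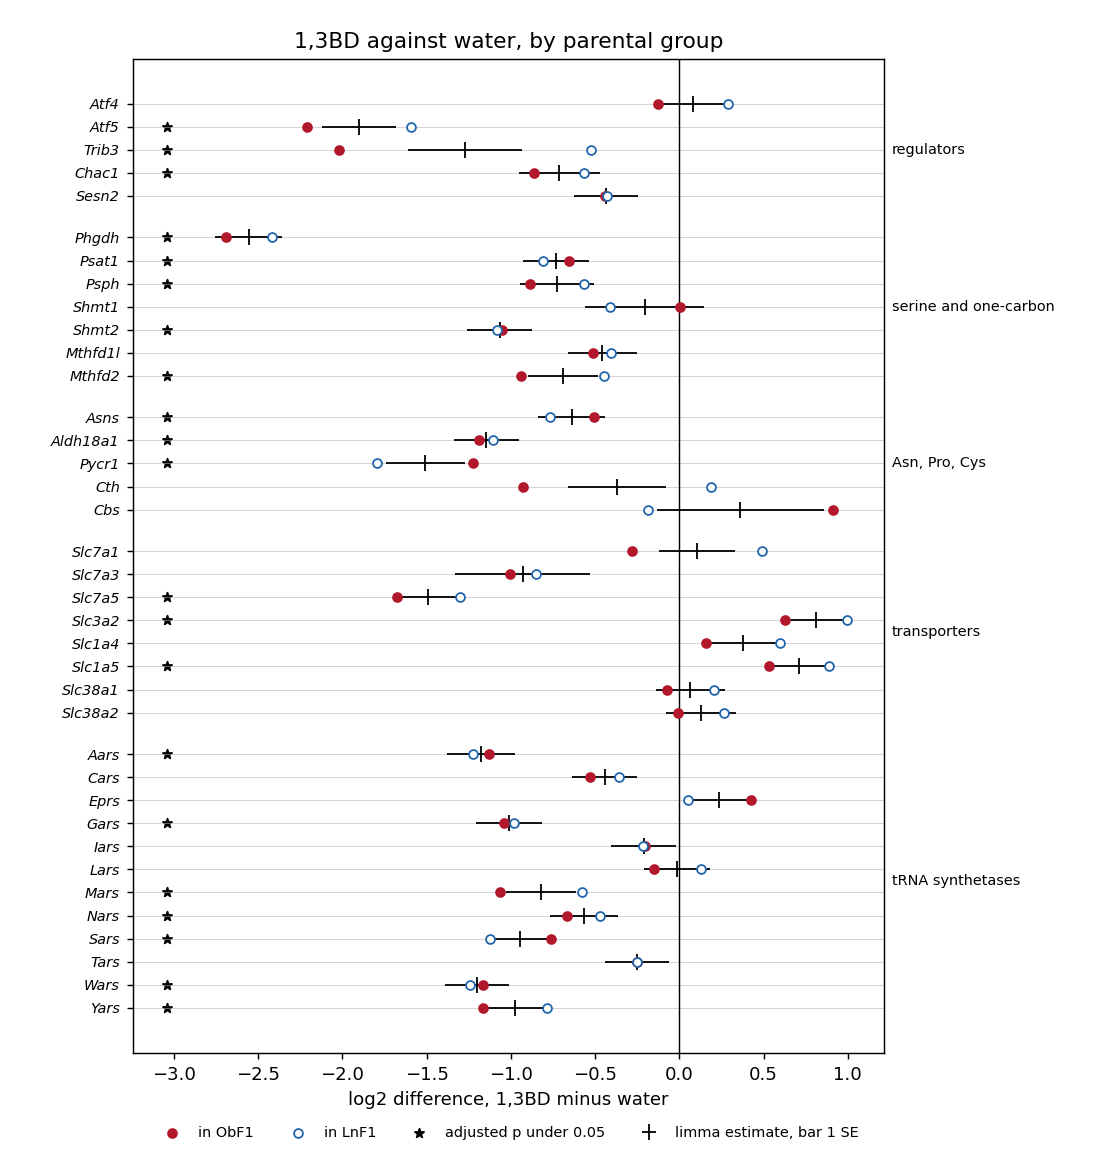
Log2 difference of 1,3BD minus water for each of the 37 members, grouped by role. Filled circles are the difference in ObF1 and open circles that in LnF1 (1 library against 1 library), the tick and bar are the limma estimate and its SE, and stars mark an adjusted p under 0.05. Stars stand beside 21 members, of which Slc3a2 and Slc1a5 are to the right of 0 and the other 19 to the left.

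The error in these tests comes from how unlike the 1,3BD differences were in ObF1 and LnF1, moderated across genes, with 1 residual degree of freedom. The p-values therefore rest on how well the difference repeated in the other parental group. They do not measure the spread between animals or between pools of the same group. With libraries scaled to their totals alone, the median of all genes moved to 0.19, 2283 genes were called lower and 3663 higher, and 13 members were called lower and 3 higher. With 1 library left out and the parental term dropped with it, since 3 libraries leave no residual degree of freedom for both terms, 11 were called lower without ObF1 1,3BD, 9 without ObF1 water, 15 without LnF1 1,3BD and 9 without LnF1 water, and 2, 0, 0 and 0 were called higher in the same order. The 8 members Phgdh, Atf5, Pycr1, Slc7a5, Wars, Aars, Aldh18a1 and Shmt2 were called without each library and in all the other settings.

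Other features of the libraries moved with the treatment. Pdgfra, a marker of the adipose progenitors the series names, stood at 412 CPM with 1,3BD and 236 CPM with water in ObF1, and at 281 CPM with 1,3BD and 243 CPM with water in LnF1. The summed level of 5 mural and myofibroblast markers was 179 CPM with 1,3BD and 8365 CPM with water in ObF1, and 121 CPM with 1,3BD and 7867 CPM with water in LnF1, nearly all of it Acta2. Pdgfrb, another such marker, stood at 154 CPM with 1,3BD and 716 CPM with water in ObF1, and at 157 CPM with 1,3BD and 538 CPM with water in LnF1, so that progenitor markers did not move one way. The summed level of 11 progenitor and fibroblast markers, mostly Col1a1, was 4243 CPM with 1,3BD and 19980 CPM with water in ObF1, and 5057 CPM with 1,3BD and 17973 CPM with water in LnF1. Mitochondrial reads made up 5.80% with 1,3BD and 1.30% with water in ObF1, and 2.78% with 1,3BD and 1.13% with water in LnF1. Summed endothelial markers were 2.44 CPM with 1,3BD and 17.6 CPM with water in ObF1, and 1.15 CPM with 1,3BD and 6.92 CPM with water in LnF1. Summed skeletal muscle markers, nearly all Acta1, were 1.87 CPM with 1,3BD and 61.9 CPM with water in ObF1, and 1.83 CPM with 1,3BD and 86.5 CPM with water in LnF1. Summed Schwann cell markers, mostly Ncam1, were 309 CPM with 1,3BD and 487 CPM with water in ObF1, and 213 CPM with 1,3BD and 277 CPM with water in LnF1. Summed markers of white blood cells reached at most 6.21 CPM and those of mature adipocytes 5.38 CPM in any library, and Cd3e, Cd79b, Adipoq and Lep were at 0 in all 4. The part of these markers and of mitochondrial reads in the differences of the 37 genes was not tested. In such bulk RNA, fewer cells of a type and less RNA per cell cannot be told apart.

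**Figure D2:**
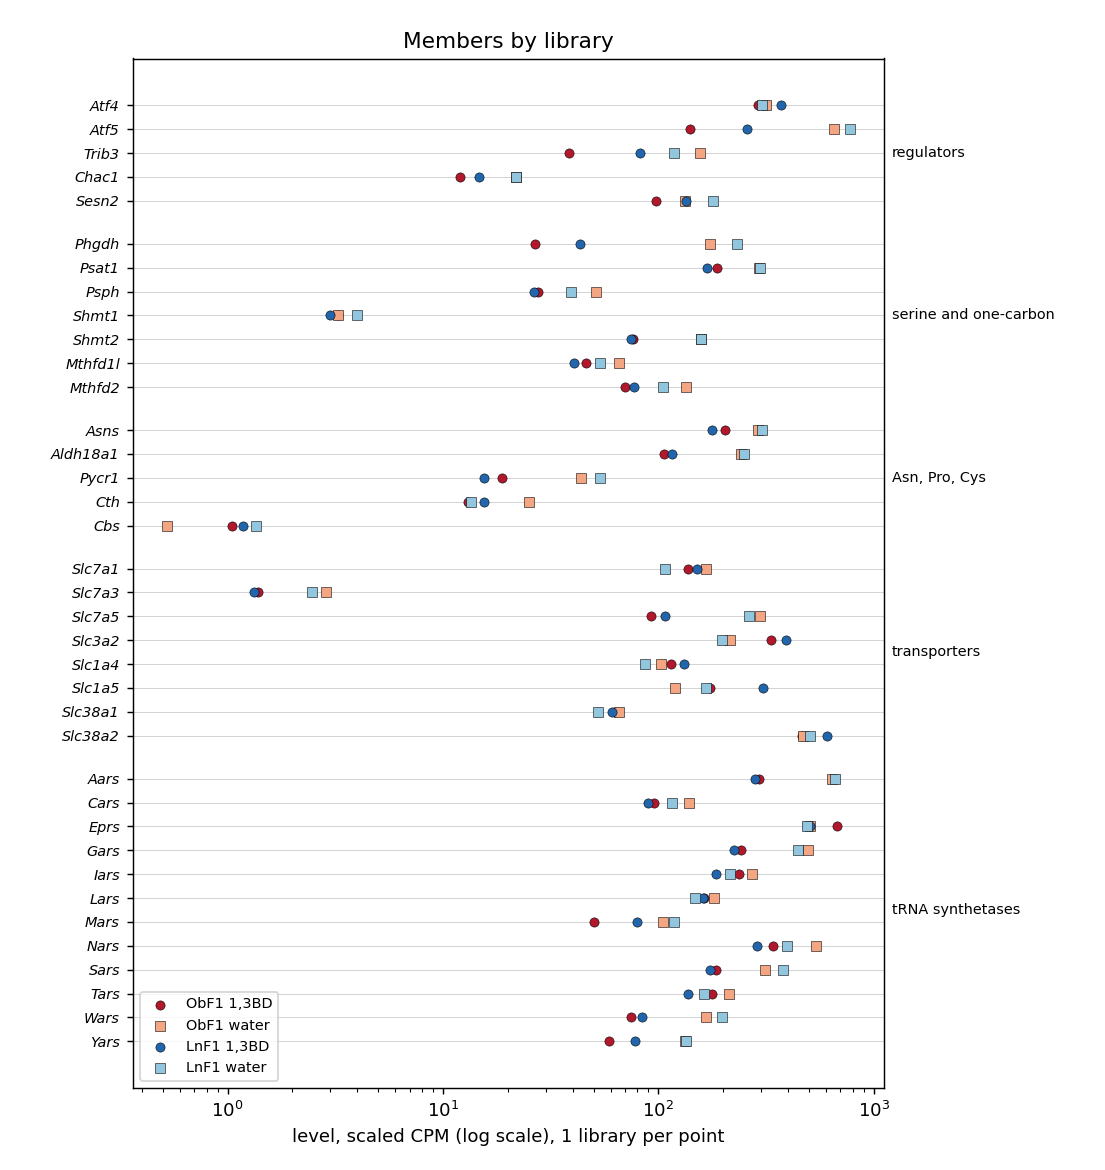
Level of each of the 37 members in the 4 libraries, in scaled CPM on a log axis, with 1 point per library. Phgdh, Atf5, Pycr1 and Slc7a5 show both 1,3BD points well to the left of both water points, while the 4 points of Atf4 lie between 291 and 371 CPM.

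Of the 5 regulators, 3 were lower with 1,3BD (Atf5, Trib3 and Chac1) and none was higher, with a median log2 difference of -0.71. Their summed level was 580.0 CPM with 1,3BD and 1283 CPM with water in ObF1, and 859 CPM with 1,3BD and 1399 CPM with water in LnF1. Atf4 lies on chromosome 15 (80255184 to 80257541, plus strand, GRCm38). Its level was 291 CPM with 1,3BD and 317 CPM with water in ObF1, and 371 CPM with 1,3BD and 303 CPM with water in LnF1. The 2 treatments overlapped, since the highest and the lowest of the 4 values both came from 1,3BD libraries (log2 difference 0.08, SE 0.21, limma adjusted p = 0.766).

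Atf5 (chromosome 7, 44812256 to 44816658, minus strand), whose mRNA is under the same kind of translational control as Atf4 and whose product drives stress and mitochondrial protein genes, had the highest mean level per kilobase of exon of all members (229 CPM per kb). It had 141 CPM with 1,3BD and 654 CPM with water in ObF1, and 257 CPM with 1,3BD and 775 CPM with water in LnF1. Both 1,3BD libraries were far below both water libraries, and the gene passed (log2 difference -1.90, SE 0.22, limma adjusted p = 7.06e-05). Per kilobase of exon, the ratio of Atf5 to Atf4 levels was 0.574 with 1,3BD and 2.44 with water in ObF1, and 0.820 with 1,3BD and 3.02 with water in LnF1. The order of the 2 genes was thus opposite in the 2 treatments, with Atf4 the higher of them with 1,3BD and Atf5 the higher with water.

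Trib3 encodes a pseudokinase that ATF4 and CHOP induce and that feeds back on both. In ObF1 it stood at 38.4 CPM with 1,3BD and 156 CPM with water, and in LnF1 at 82.2 CPM with 1,3BD and 118 CPM with water. The groups did not overlap, and the fall was far larger in ObF1 than in LnF1 (single-library log2 differences of -2.02 and -0.53), so that the estimate of -1.27 had a wide error (SE 0.34, limma adjusted p = 0.0209). Chac1, a glutathione-degrading enzyme and a classical ATF4 target, had 12 CPM with 1,3BD and 21.9 CPM with water in ObF1, and 14.7 CPM with 1,3BD and 21.8 CPM with water in LnF1. It was lower in both pairs (log2 difference -0.71, SE 0.24, limma adjusted p = 0.0321). Sesn2, a leucine sensor that restrains mTORC1, had a log2 difference of -0.44 and did not pass (limma adjusted p = 0.0833).

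Of the 7 genes of serine and one-carbon metabolism, 5 were lower with 1,3BD and none higher (median log2 difference -0.73). Their summed level was 437 CPM with 1,3BD and 881 CPM with water in ObF1, and 434 CPM with 1,3BD and 886 CPM with water in LnF1, which is a change of -50.4% in ObF1 and -51.1% in LnF1. Phgdh, phosphoglycerate dehydrogenase, which diverts a glycolytic intermediate into serine, showed the largest difference of the 37 members. It lies on chromosome 3 (98313170 to 98339990, minus strand).

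In ObF1, Phgdh had 26.8 CPM with 1,3BD and 174 CPM with water. In LnF1 it had 43.1 CPM with 1,3BD and 231 CPM with water. Both 1,3BD values were far below both water values, a 5.88-fold lower level (log2 difference -2.56, SE 0.20, limma adjusted p = 4.32e-06). Its RefSeq promoter (chr3:98339920-98340219, minus strand) is shown beside that of Asns (chr6:7693160-7693459, minus strand), because the gene with the largest difference held no TGATGNAA in this window and Asns, with a smaller one, did. The element of Asns is in capitals.
Phgdh promoter: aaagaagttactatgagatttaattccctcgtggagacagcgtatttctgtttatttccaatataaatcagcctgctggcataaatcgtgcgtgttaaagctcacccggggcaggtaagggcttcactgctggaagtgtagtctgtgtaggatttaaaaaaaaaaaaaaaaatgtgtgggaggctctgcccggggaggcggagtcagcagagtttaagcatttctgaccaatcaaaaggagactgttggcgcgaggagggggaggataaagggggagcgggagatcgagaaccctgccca
Asns promoter: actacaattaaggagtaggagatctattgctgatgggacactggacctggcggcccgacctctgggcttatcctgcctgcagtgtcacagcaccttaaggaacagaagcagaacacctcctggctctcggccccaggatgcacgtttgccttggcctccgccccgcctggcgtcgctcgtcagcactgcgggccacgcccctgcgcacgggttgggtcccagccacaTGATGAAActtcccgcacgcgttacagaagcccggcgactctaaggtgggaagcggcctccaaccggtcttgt

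The next steps of serine synthesis moved less. Psat1, the aminotransferase that follows Phgdh, had 187 CPM with 1,3BD and 294 CPM with water in ObF1, and 169 CPM with 1,3BD and 296 CPM with water in LnF1. It was lower in both pairs (log2 difference -0.73, SE 0.19, limma adjusted p = 0.0107), and the ratio of Psat1 to Phgdh levels per kilobase was 4.06 with 1,3BD and 0.987 with water in ObF1, and 2.29 with 1,3BD and 0.748 with water in LnF1. Psph, the phosphatase that completes serine, had 27.6 CPM with 1,3BD and 51.1 CPM with water in ObF1, and 26.4 CPM with 1,3BD and 39.1 CPM with water in LnF1 (log2 difference -0.73, SE 0.22, limma adjusted p = 0.0198). All 3 genes of the serine pathway were therefore lower in both pairs, with Phgdh well beyond the other 2. The calls of Psat1 and Psph were lost with library totals and with no mean-variance trend. Like each called member not named above as called without each library, both also lost the call in fits with a library left out. Psph shares 452 exon bases with Cct6a on the opposite strand, and whether counting used strand is not given in the sources used here.

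Of the serine hydroxymethyltransferases, which pass a carbon from serine to folate, the mitochondrial Shmt2 fell. It had 76.2 CPM with 1,3BD and 158 CPM with water in ObF1, and 74.4 CPM with 1,3BD and 157 CPM with water in LnF1. The 2 parental groups gave nearly the same values (log2 difference -1.07, SE 0.19, limma adjusted p = 0.0012). The cytosolic Shmt1 was low throughout, between 2.98 and 3.99 CPM, and did not pass (log2 difference -0.21, SE 0.35). Mthfd2, the mitochondrial folate dehydrogenase, had 70.2 CPM with 1,3BD and 135 CPM with water in ObF1, and 77.3 CPM with 1,3BD and 105 CPM with water in LnF1. It was lower in both pairs (log2 difference -0.69, SE 0.21, limma adjusted p = 0.0187), while Mthfd1l, which releases formate from mitochondria, had a log2 difference of -0.46 and did not pass (limma adjusted p = 0.0911).

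Of the 5 genes of asparagine, proline and cysteine synthesis, 3 were lower and none higher (median log2 difference -0.64). Asns, asparagine synthetase and a textbook ATF4 target (chromosome 6, 7675169 to 7693254, minus strand), had 203 CPM with 1,3BD and 289 CPM with water in ObF1, and 178 CPM with 1,3BD and 304 CPM with water in LnF1. The groups did not overlap (log2 difference -0.64, SE 0.20, limma adjusted p = 0.0218). With library totals, with no mean-variance trend, and with any library left out, Asns was no longer called.

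Proline is made from glutamate by Aldh18a1, which forms the reactive intermediate, and by the reductase Pycr1. Aldh18a1 had 106 CPM with 1,3BD and 242 CPM with water in ObF1, and 116 CPM with 1,3BD and 249 CPM with water in LnF1 (log2 difference -1.15, SE 0.19, limma adjusted p = 0.000794). Pycr1 had 18.7 CPM with 1,3BD and 43.9 CPM with water in ObF1, and 15.4 CPM with 1,3BD and 53.7 CPM with water in LnF1 (log2 difference -1.51, SE 0.23, limma adjusted p = 0.00051). Both enzymes of proline synthesis were thus more than 2-fold lower with 1,3BD in each parental group. Cth and Cbs, which turn homocysteine into cysteine, did not pass and had single-library differences of opposite sign in the 2 parental groups. Cth had log2 differences of -0.93 in ObF1 and 0.19 in LnF1, and Cbs never exceeded 1.36 CPM.

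The 8 transporter genes did not move together: 2 rose, 1 fell and 5 did not pass, with a median log2 difference of 0.12. Slc7a5 (LAT1; chromosome 8, 121881150 to 121907694, minus strand) and Slc3a2 (CD98 heavy chain; chromosome 19, 8706882 to 8723369, minus strand) encode the 2 chains of the exchanger that brings in leucine and other large neutral amino acids. Slc7a5 had 92.5 CPM with 1,3BD and 296 CPM with water in ObF1, and 107 CPM with 1,3BD and 264 CPM with water in LnF1. It fell in both pairs (log2 difference -1.49, SE 0.20, limma adjusted p = 0.000184).

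Slc3a2 had 333 CPM with 1,3BD and 215 CPM with water in ObF1, and 392 CPM with 1,3BD and 197 CPM with water in LnF1. It rose in both pairs (log2 difference 0.81, SE 0.20, limma adjusted p = 0.00783). Per kilobase of exon, the level of Slc3a2 was 3.78 times that of Slc7a5 with 1,3BD and 0.764 times with water in ObF1, and 3.85 times with 1,3BD and 0.785 times with water in LnF1. The 2 chains of 1 transporter therefore moved in opposite directions in both parental groups. Slc3a2 is also the heavy chain of the cystine transporter Slc7a11, which is no member and which rose with 1,3BD (log2 difference 3.38, SE 0.22): it had 147 CPM with 1,3BD and 16.5 CPM with water in ObF1, and 108 CPM with 1,3BD and 8.74 CPM with water in LnF1. The promoter of Slc3a2 is shown as that of the member with the largest rise (chr19:8713848-8714147, minus strand), and it held no TGATGNAA. This window lies inside the annotated gene, and the sequence around the outermost start at 8723369 was not searched.
Slc3a2 promoter: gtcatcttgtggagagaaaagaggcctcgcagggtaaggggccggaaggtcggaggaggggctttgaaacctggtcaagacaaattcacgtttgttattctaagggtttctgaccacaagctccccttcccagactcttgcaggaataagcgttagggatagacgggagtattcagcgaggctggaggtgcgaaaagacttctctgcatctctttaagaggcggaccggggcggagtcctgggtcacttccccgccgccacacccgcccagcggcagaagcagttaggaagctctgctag

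Slc1a5, which exchanges glutamine for other neutral amino acids (ASCT2), had 173 CPM with 1,3BD and 119 CPM with water in ObF1, and 307 CPM with 1,3BD and 166 CPM with water in LnF1. It was higher with 1,3BD in both pairs (log2 difference 0.71, SE 0.20, limma adjusted p = 0.0137). Its relative Slc1a4, a carrier of serine, alanine and cysteine, had 115 CPM with 1,3BD and 103 CPM with water in ObF1, and 132 CPM with 1,3BD and 87.0 CPM with water in LnF1, and did not pass (log2 difference 0.38, SE 0.20, limma adjusted p = 0.148). Neither of the 2 calls of a higher level was kept without ObF1 water, without LnF1 1,3BD or without LnF1 water, in fits that also lacked the parental term, and Slc1a5 was not called without that term alone. The glutamine carriers Slc38a1 and Slc38a2 and the arginine carrier Slc7a1 had log2 differences of 0.07, 0.13 and 0.10 and did not pass. Slc7a3, another arginine carrier, was low, at 1.33 to 2.87 CPM, with a log2 difference of -0.93 that did not pass (limma adjusted p = 0.0798).

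**Figure D3:**
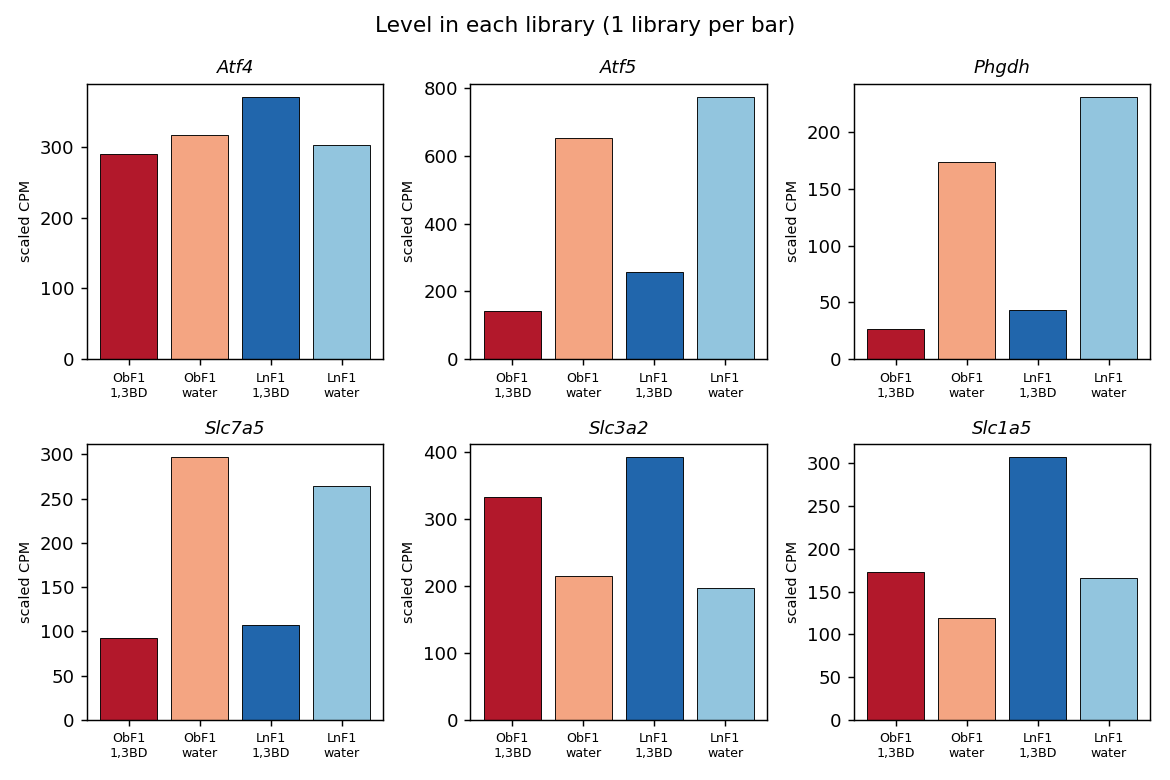
Level of 6 members in scaled CPM, with 1 bar per library and each axis starting at 0. Phgdh, Atf5 and Slc7a5 are lower and Slc3a2 and Slc1a5 higher in both 1,3BD libraries than in both water libraries, while Atf4 lies between 291 and 371 CPM in all 4.

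Of the 12 cytosolic tRNA synthetase genes, 7 were lower with 1,3BD, none was higher and 5 did not pass (median log2 difference -0.69). These enzymes join each amino acid to its tRNA. Their summed level was 2593 CPM with 1,3BD and 3704 CPM with water in ObF1, and 2285 CPM with 1,3BD and 3454 CPM with water in LnF1, a change of -30.0% in ObF1 and -33.8% in LnF1. The 3 with the largest differences charge tryptophan (Wars), alanine (Aars) and glycine (Gars).

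Wars, which interferon gamma also induces, had 74.3 CPM with 1,3BD and 166 CPM with water in ObF1, and 83.6 CPM with 1,3BD and 198 CPM with water in LnF1 (log2 difference -1.20, SE 0.19, limma adjusted p = 0.000573). Aars had 292 CPM with 1,3BD and 640.1 CPM with water in ObF1, and 282 CPM with 1,3BD and 658 CPM with water in LnF1 (log2 difference -1.18, SE 0.20, limma adjusted p = 0.00093). Gars had 242 CPM with 1,3BD and 498 CPM with water in ObF1, and 225 CPM with 1,3BD and 445 CPM with water in LnF1 (log2 difference -1.01, SE 0.20, limma adjusted p = 0.00199). In all 3 the 1,3BD libraries were close to each other and far below the water libraries. Aars shares 1326 exon bases with Exosc6 on the same strand, and Exosc6 was listed at 0 in all 4 libraries.

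The tyrosine enzyme Yars had 58.9 CPM with 1,3BD and 132 CPM with water in ObF1, and 77.8 CPM with 1,3BD and 134 CPM with water in LnF1 (log2 difference -0.98, SE 0.20, limma adjusted p = 0.0027). For serine, Sars had 184 CPM with 1,3BD and 313 CPM with water in ObF1, and 174 CPM with 1,3BD and 379 CPM with water in LnF1 (log2 difference -0.94, SE 0.20, limma adjusted p = 0.00329). The groups of both genes were well apart. For methionine, Mars had 50.1 CPM with 1,3BD and 105 CPM with water in ObF1, and 79.2 CPM with 1,3BD and 118 CPM with water in LnF1 (log2 difference -0.82, SE 0.21, limma adjusted p = 0.0084). Nars, for asparagine, had 340.3 CPM with 1,3BD and 539.6 CPM with water in ObF1, and 286 CPM with 1,3BD and 395 CPM with water in LnF1 (log2 difference -0.57, SE 0.20, limma adjusted p = 0.0396). Mars and Nars were lower in both pairs, and their combined estimates were the smallest of the 7. Nars lost its call with library totals, with TMM or RLE factors, with no mean-variance trend and without the parental term. It was also not called with any library left out. Mars shares 68 exon bases with Ddit3, which encodes CHOP, on the opposite strand, and Ddit3 rose with 1,3BD (log2 difference 0.54).

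The 5 synthetase genes that did not pass were Cars (log2 difference -0.44), Tars (-0.25), Iars (-0.21), Lars (-0.01) and Eprs (0.24), which charge cysteine, threonine, isoleucine, leucine, and glutamate with proline. Eprs lay higher in both 1,3BD libraries, at 677 CPM with 1,3BD and 505 CPM with water in ObF1, and 506 CPM with 1,3BD and 488 CPM with water in LnF1, and the gap in LnF1 was small. The sign for Lars was positive, at 0.24, when libraries were scaled to their totals.

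Related genes were counted from lists chosen by role, with earlier results of these data known. Beside these counts, 19.2% of all genes tested were higher with 1,3BD and 24.8% lower. Of 11 other cytosolic synthetase and scaffold genes, 5 were lower and none higher, with a median log2 difference of -0.20. They included Farsa (-1.02), which charges phenylalanine, Vars (-0.88), which charges valine, and the scaffold genes Aimp2 (-0.79) and Eef1e1 (-0.74). Of 17 mitochondrial synthetase genes, 2 were higher (Nars2, 1.16, and Rars2, 0.82), 2 were lower (Sars2, -1.31, and Aars2, -0.93) and the median was -0.13. That was 11.8% each way, below the shares of all genes. Of 16 genes of eIF2 kinases, the eIF2B exchange factor and the eIF2 phosphatase, 3 were higher and 2 lower (median 0.04). Those shares, 18.8% and 12.5%, were also below the shares of all genes. The higher ones were Eif2ak3 (1.16), which encodes the endoplasmic reticulum stress kinase PERK, Eif2ak1 (0.69), which encodes the kinase HRI, and Impact (1.22), an inhibitor of the amino acid sensing kinase GCN2, and Eif2b5 (-0.75) was among the lower ones.

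Among 23 further genes known to respond to ATF4 or CHOP, 9 were higher and 5 lower (median log2 difference -0.11). They included Slc7a11 (3.38), Vldlr (1.92), a lipoprotein receptor, Ero1l (1.86), an oxidase of protein folding in the endoplasmic reticulum, and Atf3 (-2.23), a stress transcription factor. Ero1l had 1498 CPM with 1,3BD and 424 CPM with water in ObF1, and 984 CPM with 1,3BD and 263 CPM with water in LnF1. Of 22 genes of endoplasmic reticulum chaperones and degradation, 14 were higher and none lower (median 0.87), among them Derl3 (2.65), a degradation factor, and Ern1 (1.43), which encodes the stress sensor IRE1. Derl3 was low throughout. It had 2.03 CPM with 1,3BD and 0.304 CPM with water in ObF1, and 3.23 CPM with 1,3BD and 0.382 CPM with water in LnF1. Genes that fell among the 37 members and genes that rose in these 2 lists were thus measured in the same libraries.

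Of 15 further amino acid enzyme genes tested, 7 were lower and 1 higher (median log2 difference -0.61). The higher one was Glul, glutamine synthetase, with 347 CPM with 1,3BD and 48.5 CPM with water in ObF1, and 257 CPM with 1,3BD and 40.3 CPM with water in LnF1 (log2 difference 2.75). The lower ones included Pycrl (-1.18), another reductase of proline synthesis, Asl (-1.07), the argininosuccinate lyase, and Bcat2 (-1.01), the mitochondrial branched-chain aminotransferase. Of 16 other genes of the folate and methyl cycles, 7 were lower and 2 higher (median -0.02), with Aldh1l1 (-2.52), a folate oxidase, Fpgs (-1.40), which retains folate in cells, Ahcy (-1.08), which hydrolyses S-adenosylhomocysteine, and Gcsh (-1.04), of the glycine cleavage system, the largest. Of 17 other amino acid transporter genes tested, 3 were higher and 3 lower (median -0.20), both shares below those of all genes tested.

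**Figure D4:**
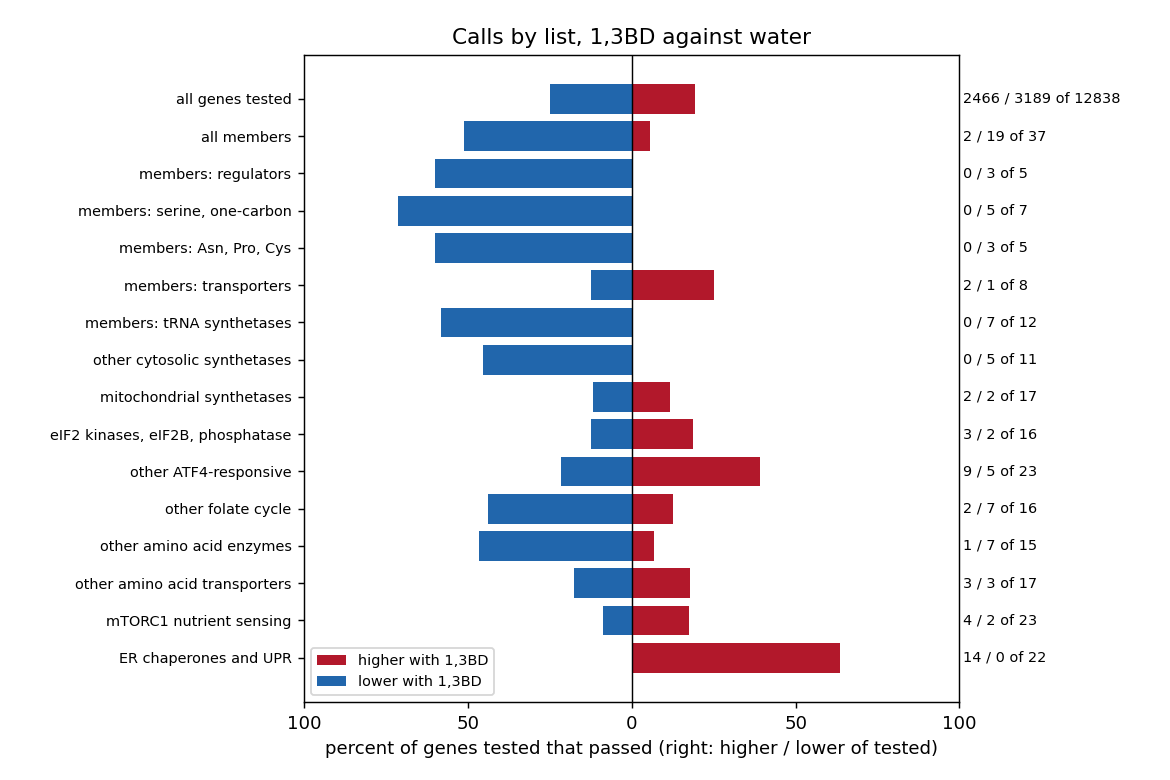
Percent of tested genes that passed as higher (right of 0) or lower (left of 0) with 1,3BD against water, for all genes tested, the 5 groups of members and 9 lists of related genes. The lower share exceeds the higher one in 4 of the 5 member groups, transporters being the other, and the endoplasmic reticulum list has 14 of 22 genes on the higher side and 0 on the lower.

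The comparison of ObF1 with LnF1 asked how the parental group bears on gene expression in the offspring. None of the 37 members passed between ObF1 and LnF1, in limma, edgeR, DESeq2 or limma voom, against 0.195% of all genes called higher and 0.101% called lower in limma. The median log2 difference was 0.01 over the members and 0.01 over all genes. At an unadjusted p under 0.05 there were 4 members in limma, 4 in edgeR, 4 in limma voom and 3 in DESeq2. In limma, 1392 of all 12838 genes tested were under this p as well, a share near that of the members. The 4 in limma were Slc1a5 (log2 difference -0.65, SE 0.20, limma adjusted p = 0.250), Atf5 (-0.56, SE 0.22, limma adjusted p = 0.386), Phgdh (-0.55, SE 0.20, limma adjusted p = 0.346) and Sesn2 (-0.44, SE 0.19, limma adjusted p = 0.423), each with a lower value in ObF1 in both treatments. None of the 9 lists of related genes had a called gene in this comparison.

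In 10 members both single-library differences were negative, as in 28.5% of all genes, and in 12 both were positive, as in 30.2% of all genes. Both ObF1 libraries lay below both LnF1 libraries in Sesn2, Slc38a2 and Cbs (8.11% of members, against 8.02% of all genes). They lay above both in Iars, Lars, Tars and Slc38a1 (10.8%, against 8.44%). These shares were near the background. Sesn2 had 97.9 CPM in ObF1 and 134 CPM in LnF1 with 1,3BD, and 133 CPM in ObF1 and 180.3 CPM in LnF1 with water. Trib3 was the 1 member at least 2-fold lower in ObF1 with 1,3BD, as were 4.27% of all genes, and Cbs, at 1.36 CPM or less, the 1 with water, as were 2.80%. No member was at least 2-fold higher in ObF1, against 3.07% of all genes with 1,3BD and 3.04% with water.

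**Figure D5:**
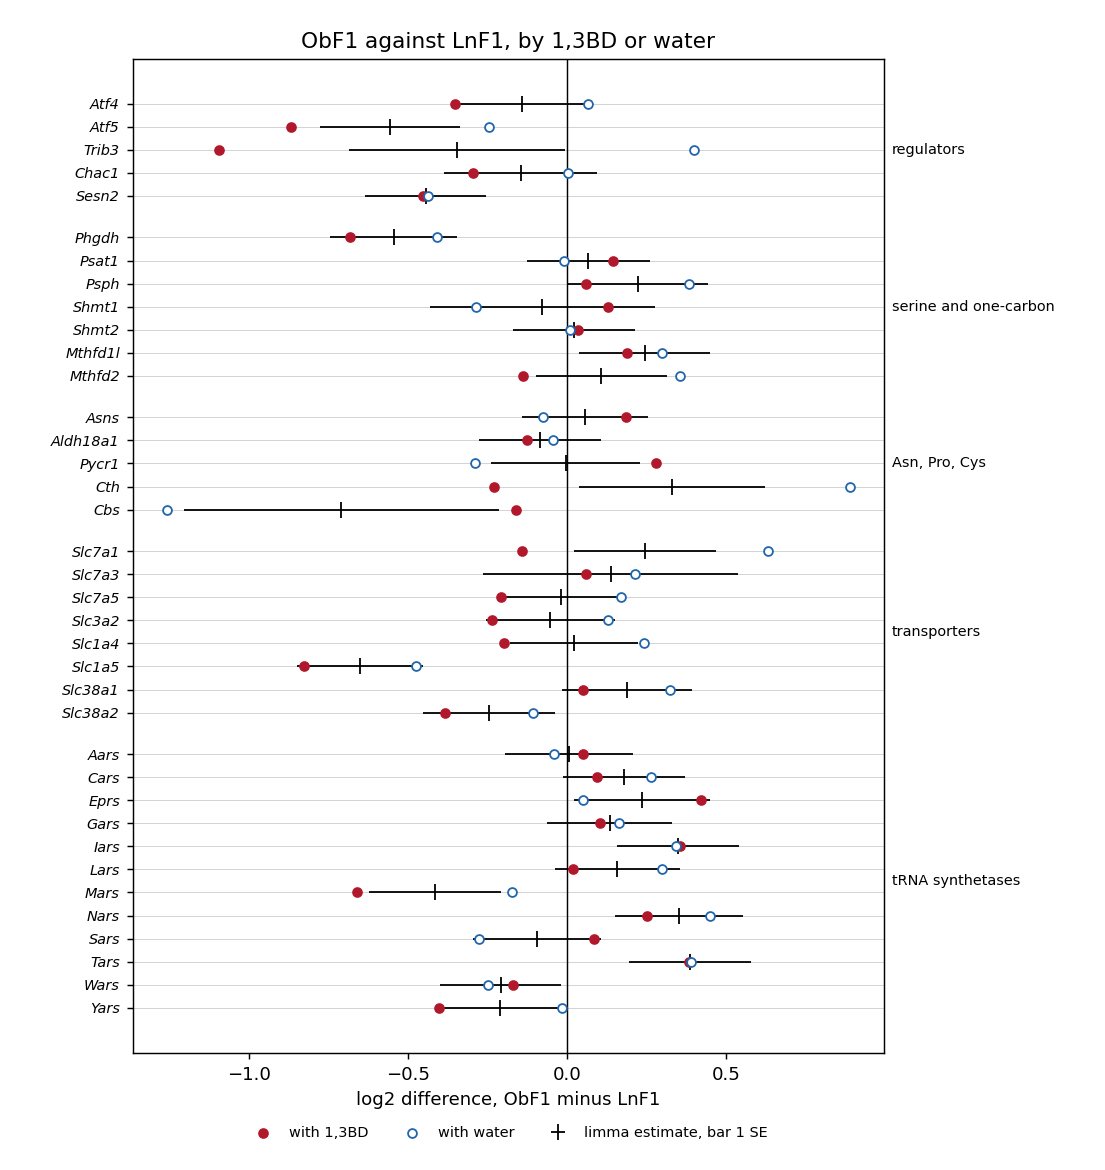
Log2 difference of ObF1 minus LnF1 for each of the 37 members, grouped by role, with 1 point for the 1,3BD libraries and 1 for the water libraries, and the limma estimate with its SE. The points scatter on both sides of 0 and no member passed the test; Trib3 has the widest gap between its 2 points among the members whose points lie on opposite sides of 0.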

How the data were processed

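Bulk RNA sequencing of 4 libraries, 1 per group and each a pool of 3 mice, was used. Per the labels' protocols, TRIzol RNA went into KAPA mRNA libraries. The submitters' processing notes list mm10, edgeR and DESeq2, with no role stated. No aligner, counter, annotation or strand setting is given in the sources used here. Columns were matched to groups by name, and the 2 columns that name no 1,3BD were matched to water.

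The deposited values carry the name of raw counts but are a scaled signal per gene. Dividing each column by its smallest value gave whole reads for 100% of values (relative tolerance 1e-06). The unit was therefore CPM of the library total times a scaling factor (1.05 for ObF1 1,3BD, 0.885 for ObF1 water, 1.13 for LnF1 1,3BD and 0.950 for LnF1 water). One read was worth 0.0359 to 0.0434 CPM, and a count of 0 allows up to 3 reads, or 0.108 to 0.130 CPM, for counting error only.

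The planned count test was replaced by limma 3.58.1 (R 4.3.3) on log2(CPM + 0.0796), where the pseudocount is worth 2 reads, with trend and robust moderation, in a model additive in treatment and parents. Fold changes on this scale understate those of low genes. The filter of 1 CPM in 2 or more libraries left 12838 genes, and p-values were adjusted over all of them by the Benjamini-Hochberg method. Counting intervals of single values were exact Poisson intervals. Alternatives were edgeR 4.0.16, DESeq2 1.42.0 and limma voom on the recovered reads, other scalings, pseudocounts, filters and moderation, and leaving out each library. The fit was tested on simulated data with 200 changed genes. Changes of log2 1 were recovered in 42.9% of cases for treatment and 50.7% for parents. For changes of log2 2 the shares were 95.2% and 96.7%, and unchanged genes gave 9 and 7 false calls. Between parental groups, a gene that did not pass may therefore still differ by 2-fold. With 1,3BD, 2466 genes were called higher and 3189 lower, far more than were changed in the simulation, and the adjusted p depends on that number. The simulated shares therefore do not give how many changes the treatment test recovers. A gene that did not pass with 1,3BD may still differ. Coordinates and exon lengths come from the GRCm38 annotation and promoter sequences from RefSeq (GRCm38.p6).

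The members and the lists of related genes were chosen with earlier results of these data known. Values by library are given for Atf4 and each member that passed, and by count or range for others. Related lists are given by counts, naming up to 4 genes with the largest differences among those that passed. Members and listed genes named beyond that rule were chosen after their values were seen. A further promoter sequence is not reported here.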

Additional observations from a re-analysis of the deposited data

Results flagged for a closer look

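For 13 members, single-library differences had opposite signs in the 2 groups compared, each beyond its counting error. The share of all genes that meets this rule was not computed. Without regard to counting error, the 2 signs for 1,3BD against water were the same in 29 of 37 members and 10529 of 12838 genes. For ObF1 against LnF1 they were the same in 22 of 37 members and 7545 of 12838 genes. By sign alone, the members were thus near all genes. With 1 library per group the difference between them was not tested.

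On the log2 scale, the difference of 1,3BD from water for Atf4 was -0.13 in ObF1 and 0.29 in LnF1 (ObF1 minus LnF1 -0.42). For Slc7a1 it was -0.28 in ObF1 and 0.49 in LnF1 (-0.78), and for Lars -0.15 in ObF1 and 0.13 in LnF1 (-0.28). For these 3 genes the value was negative in ObF1 and positive in LnF1.

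The difference of ObF1 from LnF1 was, for Trib3, -1.10 with 1,3BD and 0.40 with water (1,3BD minus water -1.50). Cth had -0.23 with 1,3BD and 0.89 with water (-1.13), and Slc7a1 had -0.14 with 1,3BD and 0.63 with water (-0.78). Mthfd2 had -0.14 with 1,3BD and 0.35 with water (-0.49), Slc1a4 had -0.20 and 0.24 (-0.44), and Atf4 had -0.35 and 0.07 (-0.42). Slc7a5 had -0.21 with 1,3BD and 0.17 with water (-0.38), and Slc3a2 had -0.24 and 0.13 (-0.37). The other 4 genes were higher in ObF1 with 1,3BD and lower in ObF1 with water. Pycr1 had 0.28 with 1,3BD and -0.29 with water (0.57), Sars had 0.09 and -0.28 (0.36), Asns had 0.19 and -0.07 (0.26), and Aars had 0.0512 and -0.0397 (0.0909).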

How the results depend on the processing

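No paired analysis was possible because each group is 1 library with no replicate number in the labels, beyond the parental term of the model, which already sets 1,3BD against water within ObF1 and LnF1. Of the 21 members called with 1,3BD against water, 12 were called in all 13 other settings that kept the 4 libraries, and 8 in all 17 alternatives. Scaling to library totals moved the members' median to -0.39 and the median of all genes to 0.19, so that the members' median minus that of all genes was -0.58 both ways; 3663 genes were then called higher and 2283 lower, against 2466 and 3189. Chac1, Psat1, Psph, Mthfd2, Asns and Nars lost their calls there and Slc1a4 gained one. With no mean-variance trend 12 members were called lower and 1 higher. Trib3, Chac1, Psat1, Psph, Mthfd2, Asns, Mars, Nars and Slc1a5 lost their calls there and Slc7a3 gained one. Without the parental term 17 were called lower and 1 higher. Fits to 3 libraries also lacked the second term, so their shifts mix the missing library with the change of model. Fewer of all genes were called with 1,3BD against water in these fits too. Their median log2 difference for 1,3BD against water ranged over -0.73 to -0.53 for the members and -0.06 to -0.05 for all genes. With each library left out in turn, 9 to 15 were called lower and 0 to 2 higher, and the parental median ranged over -0.29 to 0.40. By construction, the parental estimates of 3 libraries take in the 1,3BD difference, so their signs say nothing of the stability of the parental difference. Signs turned for members that had not passed: Shmt1 (0.0383), Iars (0.0401) and Lars (0.238) with library totals, and Lars with TMM (0.0454) and RLE factors (0.0359). With 1 library left out, estimates ranged over -0.814 to 0.0754 for Cth, -0.268 to 0.991 for Cbs, -0.161 to 0.137 for Lars, -0.0938 to 0.259 for Atf4, -0.0629 to 0.321 for Slc38a2, -0.212 to 0.421 for Slc7a1 and -0.0970 to 0.228 for Slc38a1, and between parental groups over -1.66 to 0.55 for Atf5 and -1.89 to 0.80 for Phgdh. The share of matched members was 25% for TGATGCAA and 57.1% for TGATG, against 35.7% for TGATGNAA. That order is fixed by the letters, since each looser form takes in every match of a stricter one. The cause of the other shifts was not tested. At 1.36 CPM or less, Cbs had too few reads to show a small difference.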

Other observations

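Some genes of amino acid transport and nutrient sensing moved far with 1,3BD, in both directions. The shares called in these lists were below those of all genes tested, 19.2% higher and 24.8% lower. Of the other amino acid transporter genes tested, 17.65% were higher and 17.65% lower. Among other amino acid transporters, Slc43a2, a carrier of large neutral amino acids like Slc7a5, had 25.2 CPM with 1,3BD and 7.43 CPM with water in ObF1, and 30.2 CPM with 1,3BD and 5.99 CPM with water in LnF1 (log2 difference 2.04, SE 0.26, limma adjusted p = 0.000137). Slc7a7 (-1.90) and Slc7a8 (-1.59), which pair with Slc3a2 as Slc7a5 does, were lower, and so was Slc38a4 (-2.54). Slc7a6, another light chain gene of Slc3a2, did not pass (log2 difference 0.34).

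Of 23 genes of mTORC1 regulation by nutrients, 4 were higher and 2 lower (median log2 difference 0.25). Those shares were 17.4% and 8.70%, against 19.2% and 24.8% of all genes tested. Gatsl3, the older symbol of the arginine sensor gene Castor1, had 5.55 CPM with 1,3BD and 24.1 CPM with water in ObF1, and 8.46 CPM with 1,3BD and 28.4 CPM with water in LnF1 (log2 difference -1.92, limma adjusted p = 0.000166). Fnip1 (1.44) and Fnip2 (0.75), partners of folliculin at the lysosome, were higher, and Akt1s1 (-0.85), an inhibitory subunit of mTORC1, was lower.

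Lars2, the mitochondrial leucine enzyme, stood at 158 CPM with 1,3BD and 1528 CPM with water in ObF1, and at 1060.0 CPM with 1,3BD and 844 CPM with water in LnF1. The ObF1 1,3BD library was far below the other 3, and the difference of 1,3BD from water did not pass (log2 -1.47, SE 1.55, limma adjusted p = 0.577). Lars2 was chosen after its values were seen.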
